A study of Mus musculus with 26 samples.

Results

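Hepatocyte growth factor (Hgf) with its receptor Met, and 3 fibroblast growth factors (Fgf1, Fgf2, Fgf7) with the 4 fibroblast growth factor receptors (Fgfr1 to Fgfr4), were followed in Foxl1-Cre-marked liver cells during a bile duct injury. These 9 genes, of 27827 gene names on the array, were chosen as members of the HGF and FGF signalling pairs. They were read by 25 probes, every non-control probe that carries one of the 9 names, and all 25 entered the tests. All samples came from Foxl1-Cre; RosaYFP mice aged 6 to 10 weeks. YFP-positive cells were sorted from the CD45-negative non-parenchymal cells of livers, and the DDC diet had lasted 3 days (4 arrays), 7 days (3 arrays) or 14 days (2 arrays). YFP-negative cells came from the same gate at the same 3 times (3 arrays each). Day 0 cells were the total non-parenchymal cells of chow-fed mice (2 arrays), for which the labels name no sort by CD45 or YFP, so sort and diet cannot be told apart in a comparison with day 0. YFP marks cells in which the Foxl1 promoter drove Cre at some time, and their progeny. The labels do not say whether arrays of a group came from separate mice, so p-values measure only the spread between these arrays.

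HGF is secreted in the liver mainly by mesenchymal and endothelial cells, and MET is the tyrosine kinase receptor through which it acts on epithelial cells. FGF ligands bind 4 related tyrosine kinase receptors with heparan sulfate as a cofactor, and FGFR4 is the main form of hepatocytes, where it takes part in the control of bile acid synthesis. FGF7 is a mesenchymal ligand of an epithelial splice form of FGFR2. The DDC diet injures bile ducts and brings out a ductular reaction, in which progenitor-like biliary cells expand beside stellate cells and macrophages.

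Values below are log2 levels of 1 probe relative to the 75th percentile of its own array, so a value of 0 equals that percentile. Levels of different probes are not comparable with each other. The probe with the highest mean level stands for its gene unless another is named. A difference passed the test at an adjusted p below 0.05 in limma, fitted on 39591 probes and adjusted over all of them.

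The probe sequences show which part of each transcript was read, since several members were read differently by different probes. Positions are on mouse build mm9 as the array files give them, 5′ to 3′ on the strand of the gene. Exon and UTR annotation of this build was not used here. Hgf was read by a pair of probes designed on its RefSeq mRNA (chr5:16124829-16124858 for the 30 bases shown of the brightest, and chr5:16121326-16121385), and by a pair that lie upstream of these in the genome and that the files describe as cDNA clones of Hgf (chr5:16074696-16074725 and chr5:16077080-16077109 for the 30 bases shown). Met was read at chr6:17503299-17503358 and, by its brightest probe, at chr6:17523765-17523794 for the 30 bases shown.
Hgf A_51_P484998: agtgtgtttgaagcatccatggatacatga
Hgf A_52_P435080: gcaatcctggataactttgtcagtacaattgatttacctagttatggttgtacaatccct
Hgf A_52_P489106: gtataaagcttaacagaaaaatcaggtgac
Hgf A_52_P421815: ctacttaatatatgattgggttcaaaagtt
Met A_52_P656418: gagaaagctgtaatgtgaaaatcatgttct
Met A_51_P103929: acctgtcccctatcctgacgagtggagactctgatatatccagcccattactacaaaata

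Fgf2 was read by a probe whose match is split over 47220 bases of the genome (chr3:37247934-37295153, across an intron) and by a probe at chr3:37303539-37303598. The Fgf7 probe lies at chr2:125915147-125915206. The 2 brightest Fgfr4 probes are described in the files as splice variant 17b (chr13:55269360-55269389 and chr13:55269225-55269254 for the 30 bases shown).
Fgf2 A_51_P399845: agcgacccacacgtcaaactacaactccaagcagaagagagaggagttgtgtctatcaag
Fgf2 A_52_P376768: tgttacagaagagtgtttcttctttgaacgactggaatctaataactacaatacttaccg
Fgf7 A_51_P465331: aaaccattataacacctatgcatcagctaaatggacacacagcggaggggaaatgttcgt
Fgfr4 A_52_P144363: gaagctgaccagctctgttccttgcagtac
Fgfr4 A_52_P686383: cagctggtggaagctctggacaaggtcctg

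A pair of Fgfr1 probes overlap (chr8:26684042-26684101 and chr8:26684063-26684122), and capitals mark the 39 bases they share. They differ at 1 of these, G36A, counted from 1 at the 5′ end of A_52_P668810 with its own base first. A pair of Fgfr3 probes, A_52_P506516 and A_51_P322906, overlap by 37 bases and differ at C5T, counted on A_52_P506516. The Fgfr2 probe shown (chr7:137385966-137386025, minus strand) is the one of Fgfr2 whose level varied most between arrays, and the Fgfr3 probe (chr5:34078394-34078423 for the 30 bases shown) is the one that departed from its overlapping pair. Sequences of the Fgf1 probes are not printed here.
Fgfr1 A_51_P109469: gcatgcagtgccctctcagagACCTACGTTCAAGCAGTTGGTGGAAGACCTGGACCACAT
Fgfr1 A_52_P668810: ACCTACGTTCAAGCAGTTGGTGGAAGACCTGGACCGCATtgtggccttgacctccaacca
Fgfr2 A_52_P158800: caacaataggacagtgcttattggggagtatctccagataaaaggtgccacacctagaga
Fgfr3 A_51_P237613: tagagtaatctcctgactggccagggccag

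The sorted fractions were checked against cell type markers. All 10 biliary markers were higher in YFP-positive cells over the mean of days and 3 passed (Ehf, Cftr and Cldn7, with a median of 2.87 over the list), and all 10 stellate and myofibroblast markers were lower, of which 5 passed (Col1a1, Lum, Reln, Ngfr and Lrat, with a median of -3.23). No endothelial, macrophage, hepatocyte, mesothelial or leukocyte marker passed. The mean level of the biliary list ranged from -1.01 to 3.25 on YFP-positive arrays and from -2.75 to 1.16 on YFP-negative arrays, so the fractions overlapped. A pair of YFP-positive day 3 arrays stood apart from each other. Array 3 had the lowest biliary level of the YFP-positive arrays (-1.01), and array 4 had the highest biliary level (3.25) and the lowest stellate (-4.13) and macrophage (-2.91) levels of all 20 arrays. Macrophage markers reached 3.58 on YFP-positive and 3.90 on YFP-negative arrays although the cells were sorted as CD45-negative. In sorted cell pools of this kind, fewer cells of a type and less RNA per cell cannot be told apart.

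No probe of the 9 genes passed the test between YFP-positive and YFP-negative cells. Over the mean of days 3, 7 and 14, 0.652% of all probes passed, 0.212% higher and 0.439% lower, and 0 of the 25 member probes did. At an unadjusted p below 0.05, 8 of the 25 were higher in YFP-positive cells, against 12.6% of all probes, and 2 were lower, against 7.91% of all probes. These 8 were the 3 Met probes, the 3 Fgfr4 probes, 1 of the 3 Fgfr3 probes and 1 of the Fgf2 probes, and the 2 were a Hgf probe and the other Fgf2 probe. Probes of the same gene are not independent, so this and the later counts of probes are not counts of separate genes. With each gene read by its brightest probe, 3 of the 9 were higher and 1 was lower at that level. The median difference of the 25 probes was 0.62, and that of all probes was 0.0069.

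Day by day the picture was similar. At day 3, 0% of all probes passed and 0 of the 25 member probes did, with 4 of the 25 higher at an unadjusted p below 0.05 (4.67% of all probes). At day 7, 0% of all probes passed and 0 of the 25 did, with 1 of the 25 higher at that level (1.99% of all probes). At day 14, 0.00505% of all probes passed and 0 of the 25 did, with 7 of the 25 higher (7.08% of all probes) and 1 lower (4.78% of all probes) at that level. The arrays of the 2 fractions did not overlap for 1 of the 25 probes at day 3, higher in YFP-positive cells (3.6% of all probes). At day 7 they did not overlap for 3 probes, all higher in YFP-positive cells (4.19% of all probes). At day 14, with 2 arrays against 3, they did not overlap for 10 probes that were higher (18.8% of all probes) and 4 that were lower (15.1% of all probes). The YFP-positive day 14 arrays were on slides 1 and 2 and the YFP-negative day 14 arrays on slides 4, 6 and 7. No slide held both fractions at day 14, so fraction and slide cannot be told apart at that day.

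**Figure D1:**
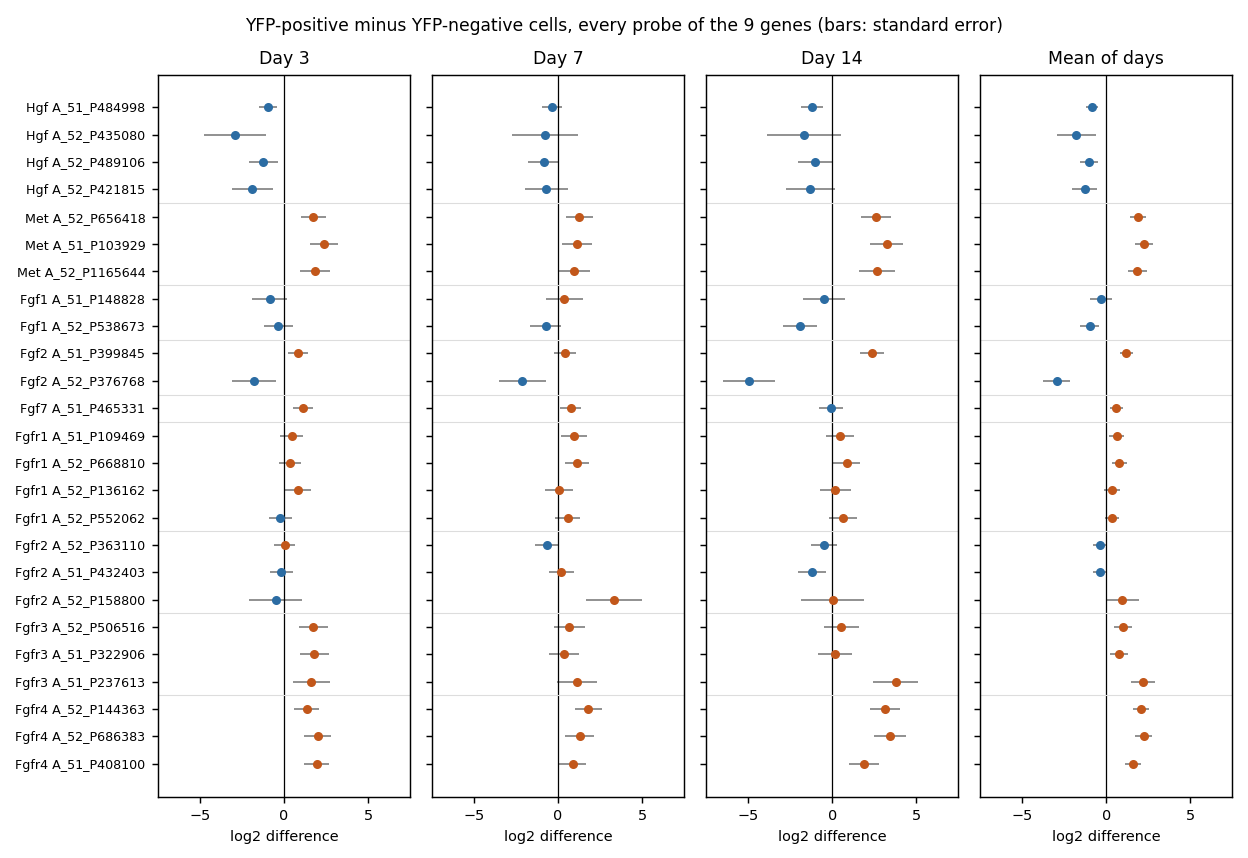
Log2 difference between YFP-positive and YFP-negative cells for the 25 probes of the 9 genes, at days 3, 7 and 14 and over the mean of the days, with bars of 1 standard error from the limma fit. All Met and Fgfr4 probes lie to the right of 0 and all Hgf probes to the left in every panel, while the Fgf2 probes lie on opposite sides.

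Met was higher in YFP-positive than in YFP-negative cells on all 3 of its probes at all 3 days, but no probe passed the test. At day 3 it had levels of 1.52, 1.15, -0.85 and 2.85 in YFP-positive cells and of -1.43, 0.31 and -0.63 in YFP-negative cells. At day 7 the levels were 2.56, 1.52 and 1.21 in YFP-positive cells and 0.09, 1.09 and 0.34 in YFP-negative cells. At day 14 they were 2.12 and 1.93 in YFP-positive cells and -1.44, -1.13 and 0.89 in YFP-negative cells, and day 0 cells had -0.35 and -0.77. On the brightest probe the fractions therefore did not overlap at days 7 and 14, and at day 3 they overlapped through YFP-positive array 3 alone. The difference over the mean of days was 1.86 ± 0.47 (SE), a 3.64-fold higher level, with an adjusted p of 0.0688. The probe at chr6:17503299-17503358 (A_51_P103929) gave 2.26 ± 0.53 with an adjusted p of 0.0587, and the remaining probe (A_52_P1165644) gave 1.83 ± 0.57 with an adjusted p of 0.105. On that remaining probe the fractions overlapped at day 7. Its levels there were -1.52, -3.78 and -4.23 in YFP-positive cells and -4.55, -4.15 and -3.73 in YFP-negative cells.

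Over time, Met averaged 1.17, 1.76 and 2.03 in YFP-positive cells at days 3, 7 and 14, against 0.51 in YFP-negative cells at day 7, the highest of the YFP-negative groups. In the order of the 7 groups, only the gap between YFP-negative day 7 cells and the day 0 cells below them exceeded the larger SD of the neighbouring groups. When YFP-positive day 3 array 3 was left out, all 3 Met probes passed, and the brightest gave 2.09 with an adjusted p of 0.0135. It also passed without YFP-negative day 14 array 3, with 2.10 and an adjusted p of 0.0487. On the slides that held both fractions of a day, the difference was 2.95 at day 3 on slide 1, and 1.42 and 0.87 at day 7 on slides 4 and 7. Met probe A_52_P1165644 went the other way on slide 7 (-0.50). With slide as a block the difference of the brightest probe was 1.88 ± 0.66 and did not pass (adjusted p = 0.489).

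Within the YFP-positive fraction, Met and the biliary markers were highest on the same array and lowest on the same array. YFP-positive day 3 array 4 had the highest Met level and the highest biliary level of the 20 arrays, and YFP-positive day 3 array 3 had the lowest of both in its fraction. Among the other groups the order differed. Met averaged -0.58, 0.51 and -0.56 in YFP-negative cells at days 3, 7 and 14, and -0.56 at day 0. The biliary list averaged -1.34, -1.15, -0.37 and 0.004 in the same groups. No correlation of Met with the list was computed, and the part of the marker list in the Met difference was not tested.

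**Figure D2:**
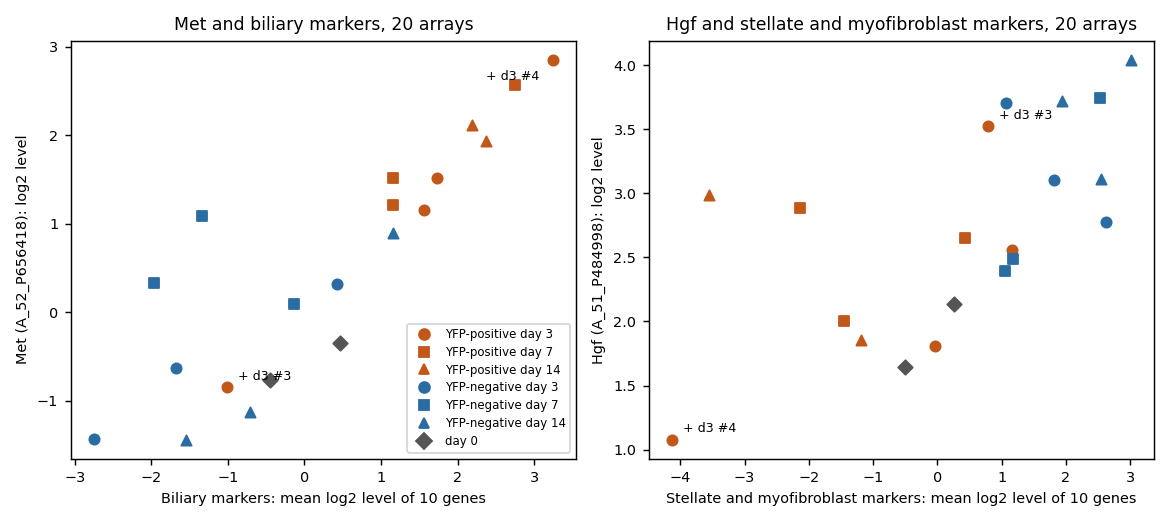
Left, Met level against the mean log2 level of 10 biliary markers, and right, Hgf level against the mean log2 level of 10 stellate and myofibroblast markers, for the 20 arrays. Colour gives the fraction and shape the day, and YFP-positive day 3 arrays 3 and 4 are labelled. Array 4 sits at the top right of the Met panel and the bottom left of the Hgf panel.

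Hgf had the opposite order. All 4 probes were lower in YFP-positive than in YFP-negative cells at each of the 3 days, and none passed. At day 3 the brightest probe had levels of 1.81, 2.55, 3.52 and 1.08 in YFP-positive cells and 3.71, 2.78 and 3.10 in YFP-negative cells. At day 7 it had 2.005, 2.65 and 2.88 in YFP-positive cells and 3.74, 2.39 and 2.49 in YFP-negative cells. At day 14 it had 2.99 and 1.86 in YFP-positive cells and 4.04, 3.72 and 3.11 in YFP-negative cells, and day 0 cells had 1.64 and 2.14. The fractions overlapped at days 3 and 7 and not at day 14. The difference over the mean of days was -0.84 ± 0.34 (SE, adjusted p = 0.189), and the other probes gave -1.78 ± 1.16, -1.04 ± 0.53 and -1.29 ± 0.77 (adjusted p of 0.399, 0.283 and 0.353). The first of these, A_52_P435080, gave -0.90 without YFP-positive day 3 array 4.

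The probes of Hgf agreed in which arrays were high and low. All 4 had their lowest level of the 20 arrays on YFP-positive day 3 array 4, where A_52_P435080 was at -9.26 and not well above background, while its other arrays lay between -0.36 and 2.77. Among the YFP-positive arrays all 4 were highest on day 3 array 3. These are the arrays with the lowest stellate level of all and the lowest biliary level of the YFP-positive fraction. Pearson correlations between the Hgf probes over the 20 arrays ran from 0.689 to 0.881. The stellate list ranged from -4.13 to 1.16 on YFP-positive and from 1.05 to 3.02 on YFP-negative arrays, and its part in the Hgf difference was not tested. All 10 endothelial markers were also lower in YFP-positive cells over the mean of days, with a median of -0.63, and none passed. The part of the endothelial list in the Hgf difference was not tested either. Within slides the difference of the brightest probe was -1.90 on slide 1 at day 3, -1.09 on slide 4 at day 7 and 0.40 on slide 7 at day 7, so 1 of the 3 went the other way.

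Set against day 0, Hgf was higher in YFP-negative cells. All 9 YFP-negative arrays were above both day 0 arrays on the brightest probe, by 1.31 ± 0.65, 0.98 ± 0.65 and 1.73 ± 0.65 at days 3, 7 and 14 (adjusted p of 0.798, 0.664 and 0.460), while YFP-positive cells overlapped day 0 at each day, with differences of 0.35, 0.62 and 0.53. None of the 25 member probes passed in any comparison with day 0, where 0.0328%, 0.0253% and 0.152% of all probes passed for YFP-positive cells at days 3, 7 and 14, and 0.0379%, 0.0227% and 0.0278% for YFP-negative cells. The median difference of all probes lay between -0.41 and -0.25 in these comparisons. The day 0 arrays were on slides 1 and 3. YFP-positive day 7 arrays were on slides 2, 4 and 7, and YFP-negative day 7 and day 14 arrays on slides 4, 6 and 7. These groups shared no slide with day 0, so slide and group cannot be told apart between them and day 0. Arrays of YFP-positive cells and day 0 did not overlap for 0 of the 25 probes at day 3, where 6.3% of all probes were higher in this way and 14.4% lower. At day 7 they did not overlap for 5 that were higher (10.4% of all probes) and 1 that was lower (26.1%), and at day 14 for 13 that were higher (16.4%) and 1 that was lower (31.1%). For YFP-negative cells 4 were higher (8.76%) and 5 lower (25.5%) at day 3, 5 higher (9.33%) and 8 lower (23.4%) at day 7, and 12 higher (11.1%) and 1 lower (30.1%) at day 14. In the authors' deposited table, Hgf was 2.28-fold and 2.99-fold higher in YFP-negative cells at days 3 and 14 than at day 0 (FDR of 2.91% and 4.22%). At day 7 the authors' deposited table gives 2.16-fold with an FDR of 11.35%. For YFP-positive cells the authors' deposited table gives 1.18-fold, 1.58-fold and 1.25-fold at days 3, 7 and 14, with an FDR of 55.77%, 15.34% and 37.34%. For YFP-negative cells at days 3 and 14, A_52_P435080 had an FDR of 2.65% and 3.93%. The Hgf probes described as cDNA clones had 12.85% and 28.08% (A_52_P489106) and 7.04% and 22.99% (A_52_P421815). On the arrays analysed here, YFP-negative day 7 cells overlapped day 0 on both of these clone probes.

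For Met the larger differences from day 0 were in YFP-positive cells. Its level exceeded that of day 0 cells by 1.73 ± 0.85, 2.32 ± 0.89 and 2.58 ± 0.98 in YFP-positive cells at days 3, 7 and 14 (adjusted p of 0.491, 0.356 and 0.309), while in YFP-negative cells the difference was -0.02 at day 3 and 1.06 at day 7, and at day 14 both means were -0.56. In the authors' deposited table Met was 4.12-fold, 5.92-fold and 8.48-fold higher in YFP-positive cells at days 3, 7 and 14 than at day 0, with an FDR of 9.55%, 0.94% and 0.46%. The authors' deposited table also gives 2.86-fold for YFP-negative cells at day 7 with an FDR of 2.58%. The other Met probes were 2.88-fold and 5.485-fold higher there (FDR of 4.15% and 0.89%), so Met was higher in YFP-negative day 7 cells too. No Met probe had an FDR below 5% in YFP-negative cells at day 3 or 14. Of the 22 member probes with a single row in the authors' deposited table, 9 were higher in YFP-positive day 14 cells than at day 0 with an FDR below 5%, against 8.49% of all 39781 probes with a single row, and 1 was lower, against 7.67%. The 9 were the 3 Met and 3 Fgfr4 probes, Fgfr1 A_52_P668810 (2.81-fold), and Fgfr2 A_52_P363110 (2.49-fold) and A_52_P158800 (7.29-fold). Probes with 10 rows are outside the 22. For the brightest Fgfr1 probe all 10 rows were 4.14-fold to 4.81-fold higher in YFP-positive day 14 cells (FDR of 0.71% to 0.86%). There 2 of 10 rows of Fgf2 A_51_P399845 and 0 of 10 of Fgfr2 A_51_P432403 had an FDR below 5%. At an FDR below 5% the authors' deposited table has 0 of the 22 higher and 0 lower in YFP-positive day 3 cells (1.41% and 0.375% of all), and 4 higher and 1 lower in YFP-positive day 7 cells (4.94% and 5.25%). For YFP-negative cells the authors' deposited table has 2, 3 and 2 of the 22 higher at days 3, 7 and 14 (3.05%, 2.82% and 1.27% of all) and 0 lower at each day (0.0553%, 0.54% and 0.088%). The authors' deposited table rests on their own normalization and test, and 6 of the 26 samples were not analysed here, so its values are set beside the fit and not combined with it.

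**Figure D3:**
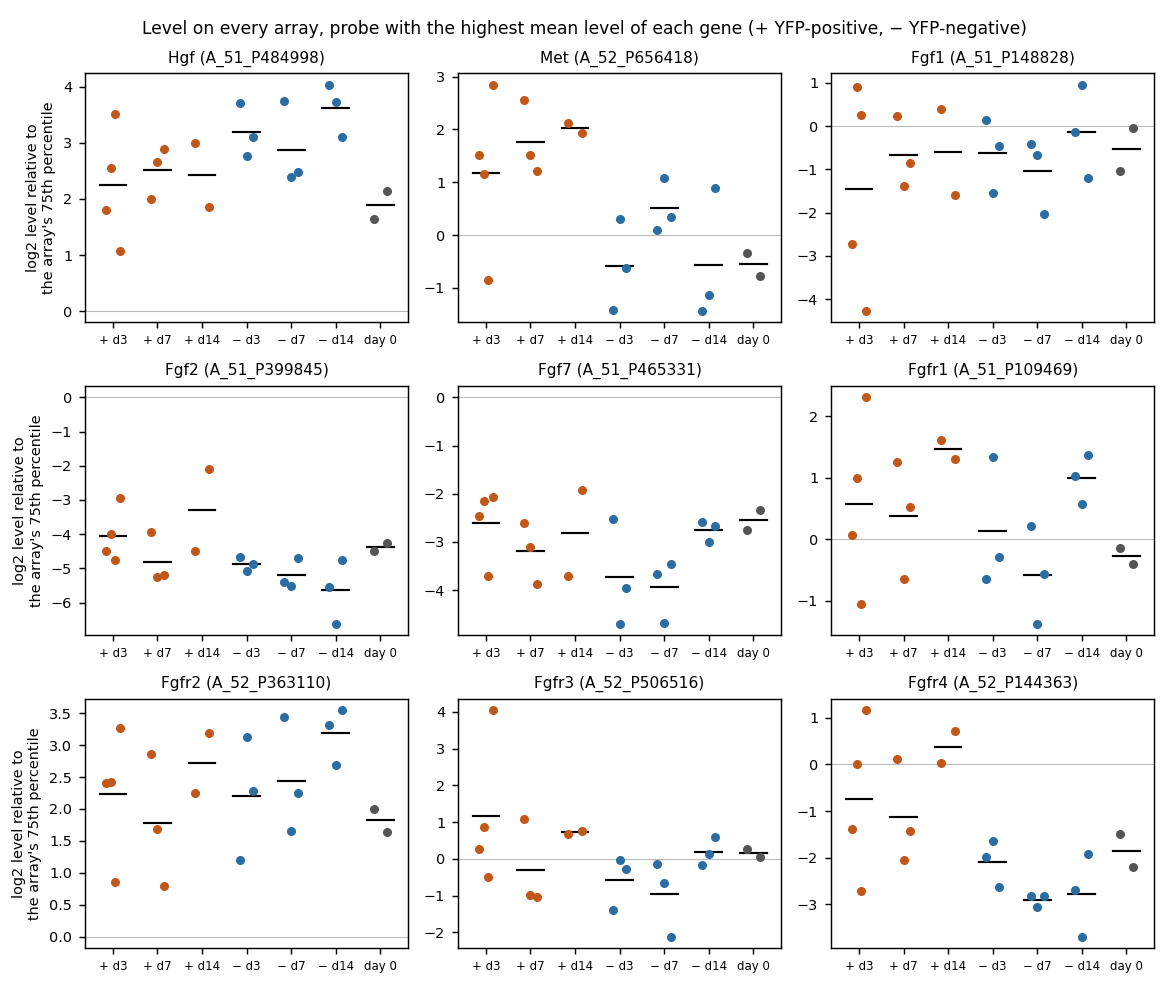
Log2 level relative to the array's 75th percentile of the brightest probe of each gene on the 20 arrays, with YFP-positive groups in orange, YFP-negative groups in blue and day 0 in grey, and a bar at each group mean. Hgf is highest in YFP-negative day 14 cells and Met and Fgfr4 in YFP-positive day 14 cells, with 1 low YFP-positive day 3 array for Met and Fgfr4.

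Fgf7, the mesenchymal ligand of epithelial FGFR2, had levels between -3.88 and -1.92 in YFP-positive cells, between -4.70 and -2.53 in YFP-negative cells, and of -2.75 and -2.34 in day 0 cells. Its difference between the fractions was 0.60 ± 0.37 over the mean of days (adjusted p = 0.368), and 0.30 without YFP-positive day 14 array 2. It was 1.13 and 0.75 at days 3 and 7 and -0.07 at day 14, and it turned to -0.50 with slide as a block. The fractions overlapped at each day. No neighbouring groups in the order of its 7 group means differed by more than the larger of their SDs.

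Fgf1, a ligand that binds all 4 receptors, varied more between arrays of a group than between groups. Its brighter probe ranged from -4.27 to 0.91 in YFP-positive cells, from -2.02 to 0.96 in YFP-negative cells, and was at -1.03 and -0.04 in day 0 cells. The lowest pair, -2.72 and -4.27, were YFP-positive day 3 arrays 1 and 4, and arrays 2 and 3 of that group were at 0.91 and 0.25. The difference between the fractions was -0.32 ± 0.65 (adjusted p = 0.816), and that of the second probe was -0.9980 ± 0.54 (adjusted p = 0.311), or -0.43 without YFP-positive day 14 array 2. The 2 probes had a Pearson correlation of 0.723 over the 20 arrays.

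Fgf2, a ligand stored in the extracellular matrix, gave opposite answers on its 2 probes. The probe across the intron had levels of -4.48, -3.9997, -4.76 and -2.93 in YFP-positive cells at day 3, against -4.66, -5.09 and -4.88 in YFP-negative cells. At day 14 it had -4.49 and -2.10 in YFP-positive cells, against -5.53, -6.62 and -4.76 in YFP-negative cells. Its difference over the mean of days was 1.19 ± 0.38 (adjusted p = 0.111), 0.79 without YFP-positive day 14 array 2, and 0.30 ± 0.41 with slide as a block. The probe at chr3:37303539-37303598 was at -10.06 and -7.05 in YFP-positive cells at day 14, against -4.09, -3.57 and -3.09 in YFP-negative cells, and its difference over the mean of days was -2.96 ± 0.81 (adjusted p = 0.0814).

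That second probe was well above background on 2 of 9 YFP-positive arrays, 7 of 9 YFP-negative arrays and both day 0 arrays, so its low levels carry only a bound. At day 7 it was well above background on 0 of 3 YFP-positive arrays and 2 of 3 YFP-negative arrays, and the groups overlapped, with -8.47, -9.43 and -9.93 in YFP-positive cells against -7.29, -4.40 and -9.77 in YFP-negative cells. The 2 Fgf2 probes had a Pearson correlation of -0.345 over the 20 arrays, the only negative one among the 26 pairs of probes of a member. No direction for Fgf2 follows from these values.

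**Figure D4:**
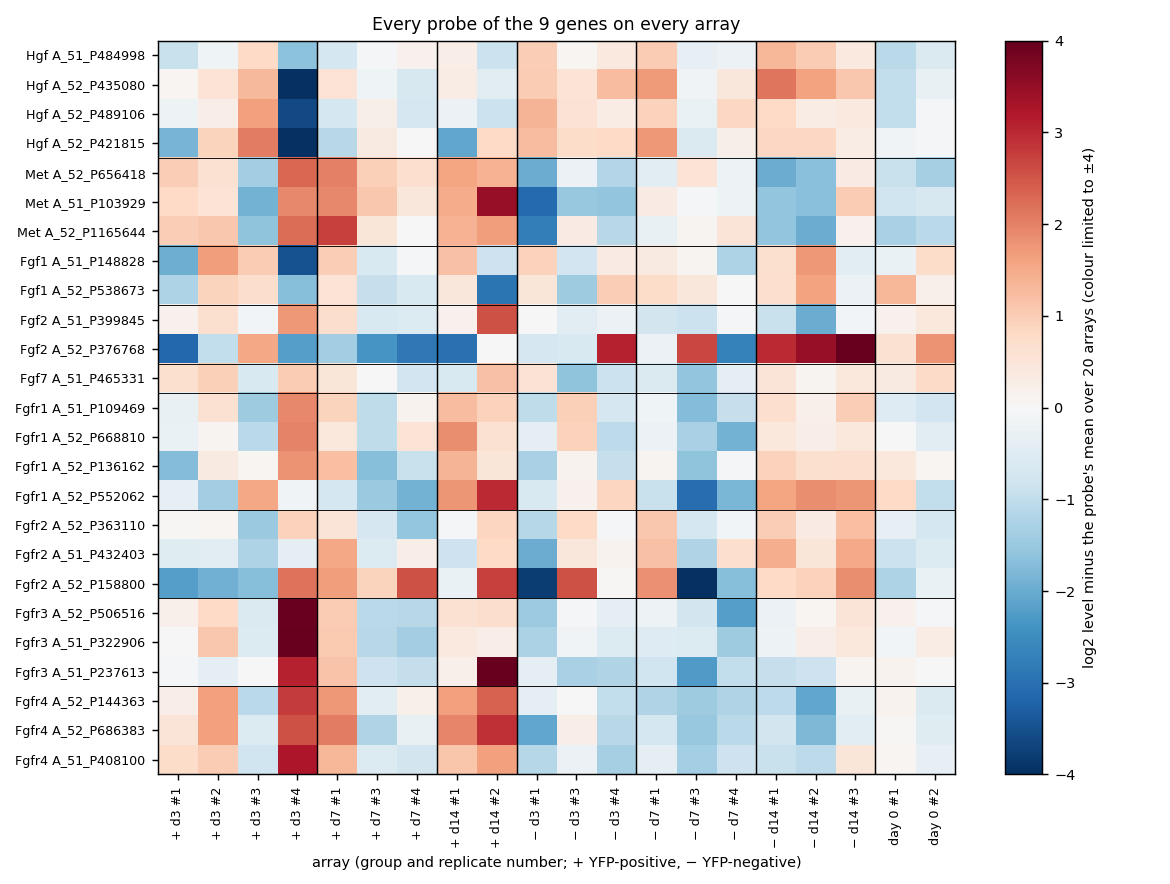
Log2 level of each of the 25 probes on each of the 20 arrays, minus the mean of the probe, with red above and blue below that mean and the colour limited to 4 on either side. The probes of Met, Fgfr4 and Hgf move together within each gene, the 2 Fgf2 probes do not, and YFP-positive day 3 array 4 is low for Hgf and high for Met, Fgfr3 and Fgfr4.

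Fgfr4 showed the smallest adjusted p of the receptors and of all members. At day 3 it had levels of -1.37, 0.00, -2.72 and 1.16 in YFP-positive cells and -1.99, -1.64 and -2.62 in YFP-negative cells. At day 7 it had 0.12, -2.05 and -1.43 in YFP-positive cells and -2.82, -3.06 and -2.82 in YFP-negative cells. At day 14 it had 0.02 and 0.72 in YFP-positive cells and -2.69, -3.69 and -1.93 in YFP-negative cells, and day 0 cells had -1.50 and -2.20. On the brightest probe the fractions did not overlap at days 7 and 14, and the overlap at day 3 came from YFP-positive array 3. The difference over the mean of days was 2.09 ± 0.47, a 4.26-fold higher level in YFP-positive cells, and just missed the threshold (adjusted p = 0.0549). The other probe described as splice variant 17b gave 2.23 ± 0.51 (adjusted p = 0.0554) and A_51_P408100 gave 1.56 ± 0.47 (adjusted p = 0.102). On both of these probes the fractions overlapped at day 7.

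The Fgfr4 difference depended on arrays and slides. Without YFP-positive day 3 array 3 all 3 probes passed, and the brightest gave 2.31 with an adjusted p of 0.00939. Within slides it was 0.61 on slide 1 at day 3, and 0.77 and 1.39 at day 7 on slides 4 and 7. The other 2 probes were at -0.50 and -0.19 on slide 4. With slide as a block it was 1.21 ± 0.46 (adjusted p = 0.533). No neighbouring groups in the order of its means differed by more than the larger of their SDs, from 0.37 ± 0.50 in YFP-positive day 14 cells (SD, n = 2) to -2.90 ± 0.14 in YFP-negative day 7 cells (SD, n = 3). In the authors' deposited table Fgfr4 was 5.87-fold higher in YFP-positive day 14 cells than at day 0 (FDR of 0.72%), and none of its YFP-negative values had an FDR below 5%.

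Fgfr3 was read by an overlapping pair of probes that moved together (Pearson correlation of 0.974 over 20 arrays) and by a further probe that moved less with them (0.580 and 0.523). The brightest had levels of 0.28, 0.87, -0.51 and 4.04 in YFP-positive day 3 cells, against -1.38, -0.02 and -0.29 in YFP-negative day 3 cells. YFP-positive day 3 array 4 was thus over 3 units above the rest of its group. The difference over the mean of days was 0.98 ± 0.54 for the brightest probe (adjusted p = 0.323) and 0.77 ± 0.54 for its overlapping partner (adjusted p = 0.431). That further probe, A_51_P237613, gave 2.18 ± 0.70 (adjusted p = 0.115). Its level was -4.30 and 1.73 in YFP-positive day 14 cells, against -5.43, -5.34 and -4.39 in YFP-negative day 14 cells, so 1 array carried most of its day 14 difference of 3.77 ± 1.33. Without that array the difference was 0.75 at day 14 and 1.17 over the mean of days.

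Fgfr1, whose ligands include FGF1 and FGF2, differed little between the fractions. Its brightest probe ranged from -1.05 to 2.30 in YFP-positive cells, from -1.37 to 1.37 in YFP-negative cells, and was at -0.15 and -0.40 in day 0 cells. The 4 probes gave differences of 0.62 ± 0.44, 0.78 ± 0.43, 0.35 ± 0.48 and 0.33 ± 0.43 (adjusted p of 0.445, 0.316, 0.708 and 0.697). The overlapping pair had a Pearson correlation of 0.900 over the arrays despite the base in which they differ.

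The fourth Fgfr1 probe (A_52_P552062) varied with time in both fractions. At days 3, 7 and 14 it averaged -3.59, -4.87 and -1.14 in YFP-positive cells and -3.38, -5.43 and -1.77 in YFP-negative cells, with -3.60 at day 0. The day 14 arrays did not overlap the day 3 arrays in either fraction. The day 14 minus day 3 difference was 2.45 ± 0.78 in YFP-positive cells (adjusted p = 0.463) and 1.60 ± 0.73 in YFP-negative cells (adjusted p = 0.99986). In this comparison 0.0404% of all probes passed in YFP-positive and 0% in YFP-negative cells, and 0 of the 25 member probes in either. The arrays did not overlap, with day 14 above day 3, for 1 of the 25 probes in YFP-positive cells (5.21% of all probes) and for 3 in YFP-negative cells (6.32% of all probes). This probe had the smallest adjusted p of the 25 in the test for any difference among the 7 groups (0.162), a test that 0.0177% of all probes passed. No probe of the 25 passed for a difference between the fractions in the change over time, nor did any of all probes (0%).

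Fgfr2, the receptor of FGF7 in epithelia, did not separate the fractions. Its brightest probe ranged from 0.79 to 3.27 in YFP-positive cells, from 1.196 to 3.54 in YFP-negative cells, and was at 2.0025 and 1.64 in day 0 cells. The difference was -0.36 ± 0.41 (adjusted p = 0.638), and -0.38 ± 0.44 (adjusted p = 0.652) for the probe with 10 spots. The probe shown above had the widest spread. At day 7 it was at -1.09, -1.90 and -0.22 in YFP-positive cells and at -0.94, -7.72 and -4.49 in YFP-negative cells, which still overlapped. Its difference over the mean of days was 0.95 ± 0.99 (adjusted p = 0.610).

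The rest of the pathway was read through 5 lists, each gene by its brightest probe. No gene of any of them passed over the mean of days, nor at day 3, day 7 or day 14. Among 16 genes of HGF activation and MET signalling, 11 were higher and 5 lower in YFP-positive cells, with a median of 0.33. The largest differences were those of St14, a membrane serine protease that can activate pro-HGF (3.42 ± 0.75, adjusted p = 0.0511), and Spint1, an inhibitor of such proteases (2.98 ± 0.87, adjusted p = 0.0944). St14 lay between -3.87 and 1.56 in YFP-positive cells and between -4.90 and -1.22 in YFP-negative cells, and the lowest YFP-positive value was again day 3 array 3.

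Of 18 other FGF ligands measured, 15 were higher and 3 lower in YFP-positive cells, with a median of 0.93. Of the 18, 11 were higher at an unadjusted p below 0.05 (12.6% of all probes) and 1 was lower (7.91% of all probes). At that level 6 of the 16 genes of HGF activation and MET signalling were higher and 0 lower. The counts were 4 higher and 2 lower of 15 co-receptors, adaptors and binding proteins, and 0 higher and 2 lower of 12 feedback and target genes. For heparan sulfate synthesis and editing they were 1 higher and 2 lower of 11. On each array 13 to 17 of the 18 were well above background. Their mean level lay between -5.75 and -3.69 on YFP-positive arrays, between -6.46 and -4.57 on YFP-negative arrays, and at -4.15 and -4.97 on day 0 arrays. The 2 with the largest differences were Fgf18 (-2.12 ± 0.62, adjusted p = 0.0944) and Fgf16 (1.74 ± 0.51, adjusted p = 0.0929). Fgf16 was well above background on 5 of 9 YFP-positive arrays, 0 of 9 YFP-negative arrays and 1 of 2 day 0 arrays, so its value is not a difference between measured levels. Fgf18 was between -1.69 and -1.23 in YFP-negative day 14 cells, against -5.63 and -6.23 in YFP-positive day 14 cells.

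Among 15 FGF co-receptors, adaptors and binding proteins, 9 were higher and 6 lower (median 0.49), led by Flrt3, a membrane protein that binds FGF receptors (1.91 ± 0.58, adjusted p = 0.101), and the secreted FGF carrier Fgfbp1 (1.33 ± 0.49, adjusted p = 0.152). Fgfbp1 was at 1.49 on YFP-positive day 14 array 2 and between -3.40 and -1.27 on the other YFP-positive arrays, and its difference was 0.64 (adjusted p = 0.441) without that array and 2.03 (adjusted p = 0.0465) without YFP-positive day 14 array 1. Among 12 feedback and target genes of FGF and ERK signalling, 5 were higher and 7 lower (median -0.15), led by the ERK pathway inhibitor Spred3 (-1.68 ± 0.66, adjusted p = 0.174) and the transcription factor Etv1 (-0.85 ± 0.40, adjusted p = 0.242). Spred3 was well above background on 3 of 9 YFP-positive arrays, 7 of 9 YFP-negative arrays and both day 0 arrays, so its low levels carry only a bound. Among 11 genes of heparan sulfate synthesis and editing, 4 were higher and 7 lower (median -0.01). Sulf1, a sulfatase that removes sulfate groups from heparan sulfate, had -2.46 ± 0.57 (adjusted p = 0.0575), with levels between -4.25 and -0.68 in YFP-positive cells and between -2.27 and 1.72 in YFP-negative cells. Hs6st2, a heparan sulfate sulfotransferase, had -1.95 ± 1.04 (adjusted p = 0.304) and was well above background on 7 of 9 YFP-positive and all 9 YFP-negative arrays.

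**Figure D5:**
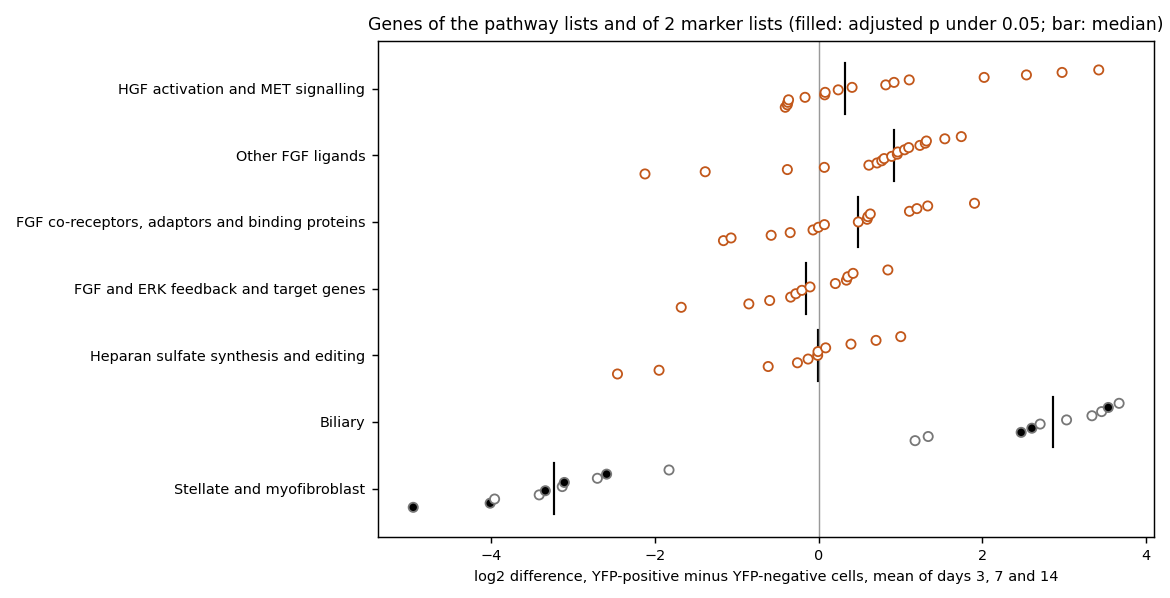
Log2 difference between YFP-positive and YFP-negative cells over the mean of days for the genes of 5 pathway lists and 2 marker lists, 1 point a gene by its brightest probe, with a bar at each median and filled points for genes that passed. Filled points appear in the biliary (3) and stellate (5) lists and in none of the pathway lists.

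The genes whose levels followed each member most closely over the 20 arrays were taken from 15230 named genes by Pearson correlation, given as a description since all arrays share the group differences. For Met they were Ly75 (0.959), Lsr (0.946) and Ptgr1 (0.940), and for Fgfr4 the tight junction gene Cldn3 (0.935), Pld1 (0.930) and the epithelial transcription factor Ehf (0.920). For Hgf they were the histidine decarboxylase Hdc (0.913) and the small GTPases Rit1 (0.904) and Rab11a (0.899). For Fgfr1 they were Plekha6, Ccdc68 and Arvcf (0.888 to 0.900), for Fgfr2 Fzd1, Agtr1a and Afap1 (0.850 to 0.871), and for Fgfr3 Mfge8, Syt7 and Cyp2j6 (0.912 to 0.913). For Fgf2 they were Six3, Gsdmcl1 and Gfap (0.936 to 0.938), for Fgf7 Mageb1, Tas2r130 and Slc4a9 (0.838 to 0.886), and for Fgf1 Zdhhc16, Mtmr2 and Bmper (0.864 to 0.918). The Fgf2 and Fgf7 probes were dim, with mean levels of -4.65 and -3.10 over the 20 arrays. The part of low signal in their likeness to these genes was not tested.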

How the data were processed

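Mouse liver cell RNA was amplified and labelled with Cy3, and hybridised to 1-colour Agilent arrays (design 014868), per the labels' protocols and the file headers. Of 26 samples, 20 with scanner output were analysed, on 7 slides, and 6 were not analysed here. The deposited intensity values are the processed signals of Feature Extraction (10.5.1.1 per the file headers, 9.53 per the submitters' processing notes). The deposited table of the authors gives fold changes against day 0 and FDR in percent, 1 row a spot, and how it was made is not given in the sources used here. No depth exists for arrays, and their number limits the precision. Between 81.0% and 91.2% of the non-control spots of an array were well above background.

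Outlier spots were left out, and spots of a probe were averaged on the log2 scale after subtracting the array's 75th percentile from the log2 intensity. The 39591 of 41174 probes that rose well above background on 2 or more arrays entered limma 3.58.1 (R 4.3.3), with the 7 groups in 1 model, 14 comparisons and Benjamini-Hochberg adjustment over all probes, and the fit was tested on simulated data. The members and lists were chosen with earlier results of these data known, and p-values are not independent support for their choice. Named are all member probes, per pathway list the genes that passed (at most 4) and the 2 with the largest change over the mean of days, and the 3 genes most like each member. All marker genes that passed are named too, chosen after their values were seen. Alternatives tried were normexp background correction, quantile normalization, no filter, 1 probe per gene, slide and replicate blocks, leaving out day 0, and leaving out each array.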

Additional observations from a re-analysis of the deposited data

Results flagged for a closer look

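The YFP-positive day 3 group was the only one with enough arrays (4) to look for an array far from the others, and 4 of the 25 probes had one. The nominal rate of the rule is about 1 in 20, but the share of all probes flagged by it was not computed. The 25 probes also share the same 4 arrays, so the count is no result about the members. Hgf A_52_P435080 was at -9.26 on array 4, with the nearest other array at 0.71. Fgfr2 A_52_P158800 was at -0.60 on array 4, above an array at -4.47. Fgfr3 A_51_P237613 was at -1.43 on array 4, above an array at -4.53. Fgfr2 A_51_P432403 was at -2.85 on array 3, below an array at -2.11. Arrays 3 and 4 are also those at the ends of the biliary marker range of this group. Over tested probes with a value on every array, array 4 had Pearson correlations of 0.762 to 0.812 with the rest of its group. Those among the rest were 0.878 to 0.905.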

How the results depend on the processing

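The count of member probes that passed between YFP-positive and YFP-negative cells over the mean of days was 0 of 25, and stayed 0 with normexp background correction, no filter on dim probes, 1 probe per gene, slide as a fixed or random block, the replicate block, and without day 0. It was 4 with quantile normalization (Met A_52_P656418 and A_51_P103929, Fgfr4 A_52_P144363 and A_52_P686383), where 1210 of all probes passed in place of 258. Leaving out 1 array at a time gave 0 to 7, with 7 without YFP-positive day 3 array 3 (the Met and Fgfr4 probes and Fgf2 A_52_P376768, with 1723 of all probes), 2 without YFP-negative day 14 array 3, and 1 without YFP-positive day 7 array 3, YFP-positive day 14 array 1 or YFP-negative day 3 array 3. At day 14 it gave 0 to 1, the 1 being Fgfr3 A_51_P237613 without YFP-positive day 14 array 1, where the lone array left is assumed to vary like the other groups. In alternatives chosen after seeing the data, it was 6 without YFP-positive day 3 arrays 3 and 4, and 0 over days 7 and 14 only. The cause was not tested. Over all probes 54 passed with normexp, 3 with slide as a fixed block, 210 as a random block and 86 with the replicate block. With the replicate block Fgfr4 was at 2.05 (adjusted p = 0.120) and Met at 1.95 (adjusted p = 0.128) in limma. Residual correlations of same-numbered arrays ran from -0.22 to 0.38. They cannot decide whether replicate numbers pair the arrays, since residuals about means of 2 to 4 arrays depend on each other. Differently numbered arrays were not compared. Fgf7 turned to -0.50 with slide as a fixed block, and Fgf1 ran from -0.65 to 0.015 when 1 array was left out. Leaving out arrays for the other probes and the pathway genes was chosen after seeing the data. With 2 to 4 arrays a group, array number limits the precision, and Fgf2 A_52_P376768 is limited by its signal over background.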
